A study of Mus musculus with 10 samples.

Results

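The serpins are a family of proteins that share 1 fold, and most of them inhibit serine or cysteine proteases. An inhibitory serpin offers a loop that the protease cuts, and the cut serpin then changes shape and keeps the protease bound and inactive. Other members inhibit nothing and instead carry hormones, fold collagen or act as secreted factors. The clades A to I group the genes by sequence, with secreted serpins of plasma in clade A, intracellular ones in clade B, and clotting, fibrinolysis, complement and collagen folding served by members of clades C to H. In the kidney the family bears on scarring, inflammation and fibrin removal, since the proteases it inhibits degrade matrix and fibrin and act in leukocytes. The members described here are all genes with a value whose mouse symbol, assigned through the Ensembl identifier, starts with Serpin. They number 45 of the 21792 genes with a value. Results are given for 44, 21 of them in clade A and 15 in clade B. Another 23 of the 68 annotated Serpin genes were not analysed here.

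RNA was from the kidney cortex of 4 sham mice and 6 mice with aristolochic acid nephropathy (AAN), a kidney scarring that follows damage of the proximal tubule by a plant toxin. The AAN mice received aristolochic acid once into the peritoneum at 5 mg/kg and the sham mice received PBS, and all 10 were taken at day 28. Every mouse carries the label WT, each library is 1 mouse, and no mice were pooled. The labels of these mice give no age, sex or strain, and the methods describe the AAN model of the study as one of male C57BL/6 mice aged 8 weeks. Values are FPKM, the fragments counted for each kilobase of a gene and each M fragments mapped, so levels can be compared between genes of different length. Where each mouse is given, the order is B607, B634, B636 and H249 for the sham mice and A483, B614, B630, B639, B642 and B666 for the AAN mice.

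The libraries held 13.4 to 17.5 M fragments, recovered from the smallest values of genes with 1 transcript, and 16690 to 17639 genes were above 0 in sham mice against 19158 to 19636 in AAN mice. The summed level of the 8 proximal tubule markers was 1866 to 4236 FPKM in sham mice and 582 to 2160 FPKM in AAN mice, with none at 0 in the sham mice. They were not set against markers of the medulla, so they do not check that the tissue was cortex. Among the AAN mice, B614 stood apart, with a proximal tubule sum of 2160 FPKM against 582 to 948 FPKM in the other 5. In whole tissue, fewer cells of a type and less RNA per cell cannot be told apart. The groups were compared with limma on log2(FPKM + 0.1) over the 17129 genes that averaged at least 0.1 FPKM, and a gene was called at an adjusted p of at most 0.05 with a change of at least 2-fold. The median log2 fold change of all genes tested was 0.75, so a change is also given relative to that shift where it matters.

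Of the 44 genes, 28 passed the filter on low values and 16 did not. Of these 28, 21 were called higher in AAN mice, 2 (*Serpinf2* and *Serpina1d*) were called lower and 5 (*Serpina1a*, *Serpina1c*, *Serpina1f*, *Serpinc1* and *Serpini1*) were not called. That is 75% higher and 7.14% lower, beside 35.8% and 3.43% of all genes tested. The median log2 fold change of the 28 was 2.12, and 24 of them lay above the median of all genes. However, 10 of the 28 had a sham mean below 0.1 FPKM and passed the filter through their level in AAN mice, and all 10 are among the 21, so the count cannot be read as a property of the family. In 19 of the 28 every AAN mouse was above every sham mouse, and in 2 (*Serpinf2* and *Serpinc1*) every AAN mouse was below, where 40.3% and 3.25% of all genes tested did the same. Scaling by the median of ratios left 17 genes called higher and 3 lower, with 19.0% and 10.5% of all genes, and quantile normalization left 15 and 4 (*Serpinf2*, *Serpina1d*, *Serpinc1* and *Serpina1c*), with 13.0% and 12.6%. Scaling each mouse to the same FPKM total went the other way, with 24 called higher, *Serpina1a*, *Serpina1f* and *Serpini1* added, and 2 lower, where 51.6% and 1.94% of all genes were called. No scaling used here turned the direction of a called gene except quantile normalization, which turned the small rises of *Serpinb8* and *Serpind1*.

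**Figure D1:**
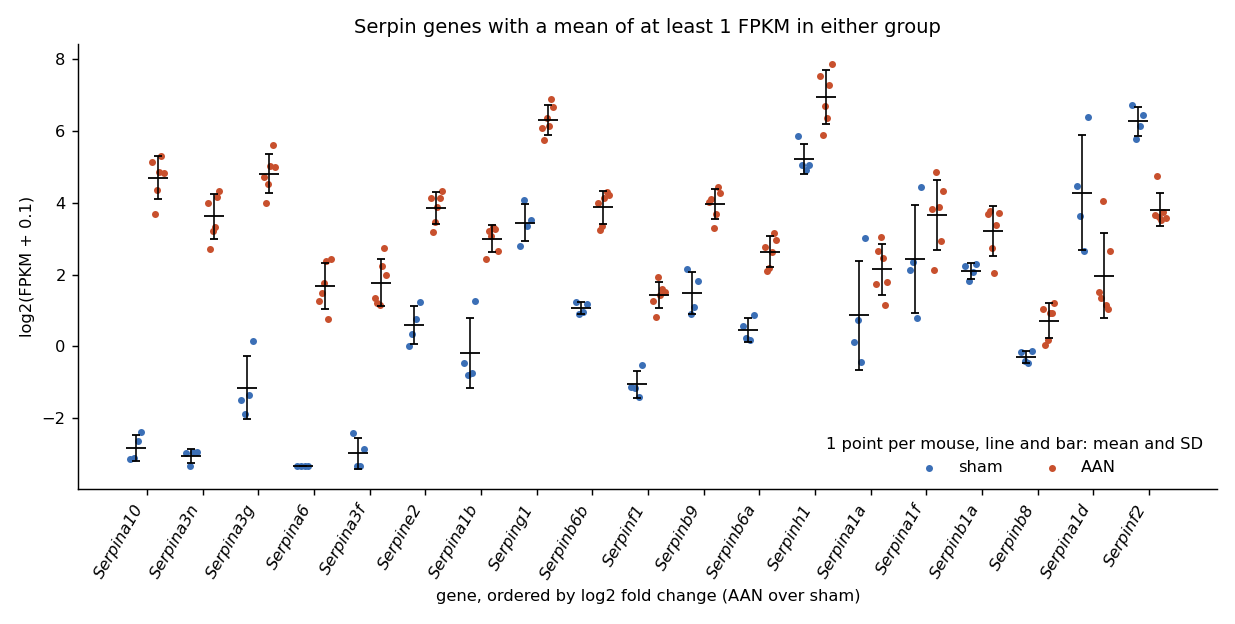
Level of the 19 Serpin genes that averaged at least 1 FPKM in either group, as log2(FPKM + 0.1), with 1 point per mouse (4 sham in blue, 6 AAN in red) and the mean and SD of each group in black. The genes are ordered by their log2 fold change. From Serpina10 to Serpinh1 the red points lie above the blue ones, and for Serpinf2 at the right end they lie below.

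**Figure D2:**
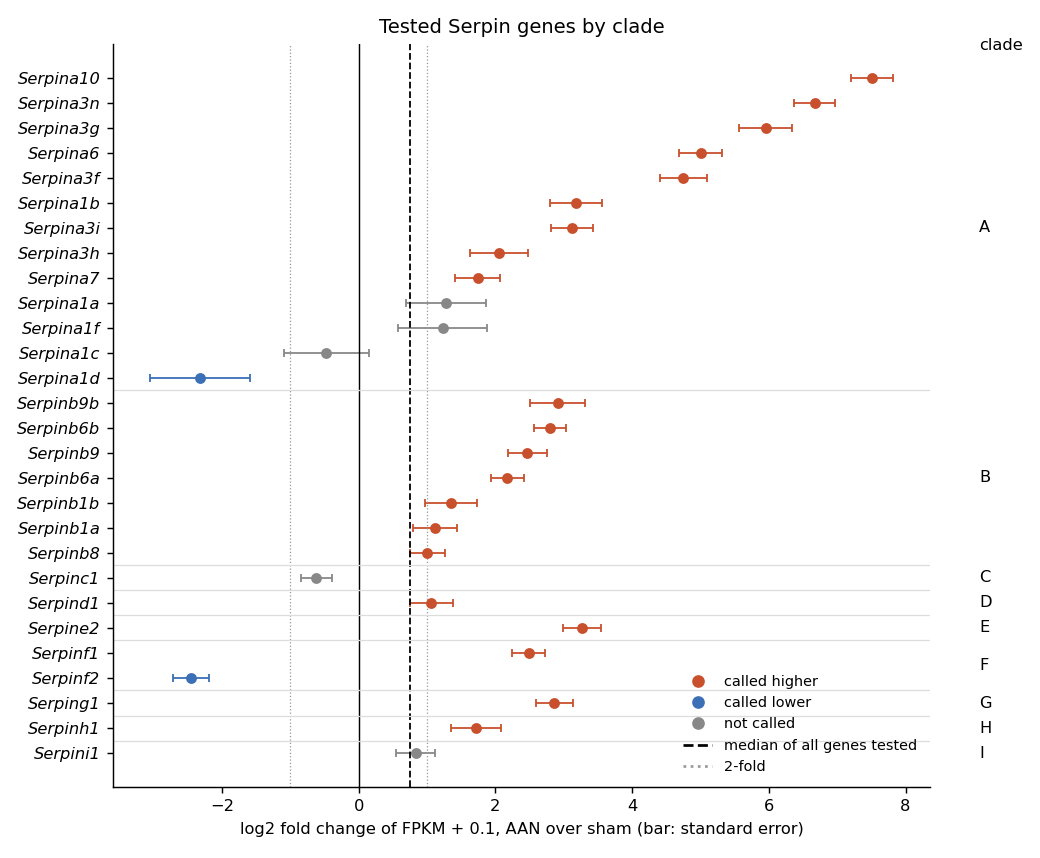
Log2 fold change of FPKM + 0.1, AAN over sham, with its standard error, for the 28 tested Serpin genes grouped by clade. The dashed line is the median of all genes tested at 0.75, and the dotted lines are 2-fold. The 7 tested genes of clade B are all called higher, while clade A runs from Serpina10 at 7.51 to Serpina1d at -2.32.

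The urokinase inhibitor gene *Serpine2* and the antiplasmin gene *Serpinf2* moved in opposite directions. *Serpine2* (chromosome 1, 79794197 to 79861180, minus strand) encodes protease nexin 1, which inhibits thrombin and urokinase. It stood at 0.908, 1.17, 1.61 and 2.24 FPKM in the sham mice and at 9.04 to 20.03 FPKM (median 15.9) in the AAN mice. Its groups did not overlap, and the log2 fold change was 3.26 (standard error, SE, 0.28, limma adjusted p = 1.71e-06).

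*Serpinf2* (chromosome 11, 75431732 to 75439591, minus strand) encodes alpha 2-antiplasmin, which inhibits plasmin itself, and it had the highest mean of the family in sham mice. Its level there was 105, 54.9, 69.6 and 86.4 FPKM. In the AAN mice it was 12.5, 26.8, 12.1, 11.4, 13.4 and 11.7 FPKM. The value of 26.8 belongs to B614, and the other 5 AAN mice lay between 11.4 and 13.4 FPKM. *Serpinf2* fell by 2.46 on the log2 scale (SE 0.26, limma adjusted p = 9.94e-06), from a mean of 79.0 ± 21.6 (SD, n = 4) to 14.6 ± 6.01 FPKM (SD, n = 6), and stayed called lower in all 19 alternatives. The proximal tubule markers moved with it: 6 of the 8 were called lower, and B614 was the highest AAN mouse in both. The part of the tubule in the fall of *Serpinf2* was not tested. *Serpinf1*, which lies beside *Serpinf2* on chromosome 11 (75409769 to 75422701), encodes pigment epithelium-derived factor, a secreted serpin that inhibits no protease. It went the other way, from 0.359, 0.349, 0.275 and 0.594 FPKM to between 1.68 and 3.71 FPKM (median 2.69), with no overlap and a log2 fold change of 2.48 (SE 0.24, limma adjusted p = 4.51e-06).

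The genes around plasminogen activation were read beside these inhibitors. Of the 12 tested genes on the plasminogen activation list, 10 were called higher and 0 lower, with a median log2 fold change of 2.20. Under the median of ratios 9 were called higher and 1 lower. The list holds activators, receptors and regulators, and also the clotting genes *F3* and *Tfpi* and the lectin protease *Masp1*. *F3* and *Masp1* are among the genes called higher, and *Masp1* is also on the complement list. Here and in the lists that follow, counts stand beside 35.8% of all genes called higher and 3.43% called lower. Under the median of ratios these shares are 19.0% and 10.5%. Extremes in each list are taken over the called genes of at least 1 FPKM in either group. Of the genes called higher, those with a sham mean below 0.1 FPKM passed the filter through their AAN level, which holds for 1 of 10 here, 1 of 8 in the complement list, 2 of 8 among acute phase genes, 3 of 5 granule serine proteases and 2 of 5 coagulation genes. The largest change in this list was that of *Plaur*, the urokinase receptor, at 3.56, and the smallest that of *Plgrkt*, a plasminogen receptor, at 1.73, which fell under the 2-fold limit after the median of ratios (0.99) and quantile normalization (0.88). *Plau*, which encodes urokinase, was at 42.1 to 94.4 FPKM in sham mice and 205 to 394 FPKM in AAN mice. *Plat*, which encodes tissue plasminogen activator, was at 17.8 to 30.6 and 55.9 to 128 FPKM. Plasminogen itself (*Plg*) was at or below 0.0687 FPKM in every mouse, so it missed the filter and was not set against *Serpinf2*.

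Within each mouse, a serpin was therefore set against its partner as a difference of log2(FPKM + 0.1), a measure in which a factor common to all genes of a mouse largely cancels. Each pair was tested with an exact permutation test (two-sided, 210 ways to divide the mice, smallest p 0.00952), and the p-values were adjusted over 6 pairs, of which 4 are given. *Serpine2* minus *Plau* was -6.13, -5.05, -4.89 and -5.34 in the sham mice, and between -4.49 and -4.14 in the AAN mice. The inhibitor thus gained 1.03 (SE 0.28) on urokinase (exact permutation p = 0.00952, adjusted p = 0.0143), and all 6 AAN mice were above all sham mice. In FPKM the transcripts of *Plau* still exceeded those of *Serpine2* in every mouse. With a pseudocount of 1, the difference (0.45, exact permutation adjusted p = 0.0857) no longer passed the limit.

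**Figure D3:**
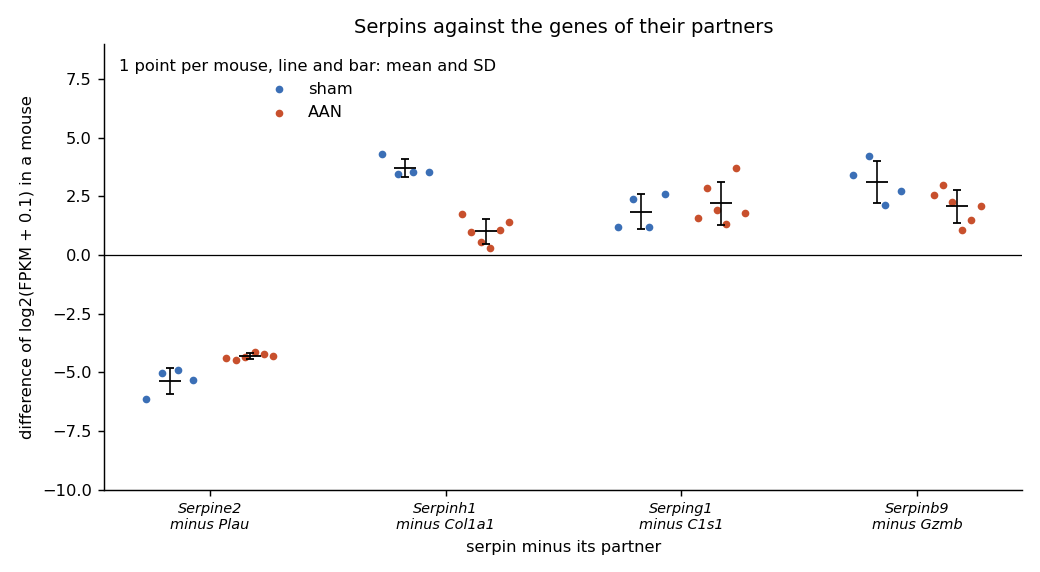
Difference of log2(FPKM + 0.1) between a serpin and the gene of its partner in each mouse (4 sham in blue, 6 AAN in red), with the mean and SD of each group in black. Serpine2 minus Plau is higher in all AAN mice, Serpinh1 minus Col1a1 is lower in all AAN mice, and the last 2 pairs overlap.

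*Serpinh1* (chromosome 7, 99345376 to 99353239, minus strand) encodes HSP47, a chaperone of the endoplasmic reticulum that binds procollagen and inhibits no protease. It stood at 57.2, 33.3, 29.9 and 33.0 FPKM in the sham mice. In the AAN mice it stood at 184, 58.9, 104, 81.9, 154 and 231 FPKM. The lowest AAN mouse, B614 at 58.9, exceeded the highest sham mouse, B607 at 57.2, by little, and the other 5 were well clear. Its log2 fold change was 1.72 (SE 0.36, limma adjusted p = 0.00163). After scaling by the median of ratios it was 0.95, under the 2-fold limit (limma adjusted p = 0.0359).

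*Serpinh1* was set against *Col1a1*, the alpha 1 chain of type I collagen, which went from 2.50 to 2.95 FPKM in sham mice to 29.9 to 86.2 FPKM in AAN mice, a log2 fold change of 4.41 (SE 0.26, limma adjusted p = 1.77e-07). *Serpinh1* minus *Col1a1* was 4.30, 3.45, 3.53 and 3.54 in the sham mice and 0.30 to 1.76 in the AAN mice, a fall of 2.69 (SE 0.30, exact permutation p = 0.00952, adjusted p = 0.0143), and lower in 6 of 6 AAN mice. Of the 16 genes of collagen and its folding, 9 were called higher, 0 lower and 7 not called (median log2 fold change 1.20, and 7 higher under the median of ratios). Besides fibrillar collagens the list holds *Col4a1*, a basement membrane collagen that was called higher. Of all genes tested, 35.8% were called higher. *Col1a1* had the largest change called in that list. The other 5 collagen genes in it lay between 1.39 (*Col5a2*) and 4.17 (*Col3a1*), a pair named after their values were seen, so not all of them had a larger change than *Serpinh1*. The smallest was that of *P3h1*, a prolyl hydroxylase of collagen, at 1.01, which was not called under the median of ratios (0.29) and was -0.07 after quantile normalization. All 8 fibroblast markers, the collagen genes *Col1a1* and *Col3a1* again among them, were called higher (7 under the median of ratios and 7 after quantile normalization). Their summed level was 31.1 to 47.2 FPKM in sham mice and 130 to 316 FPKM in AAN mice. Their part in the rise of *Serpinh1* was not tested.

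*Serping1* (chromosome 2, 84765387 to 84775444, minus strand) encodes the C1 inhibitor, which blocks the proteases of the first complement complex and of the contact system. It stood at 6.90, 16.7, 10.2 and 11.5 FPKM in the sham mice and at 53.6 to 117 FPKM (median 75.5) in the AAN mice. The groups did not overlap, and the log2 fold change was 2.86 (SE 0.27, limma adjusted p = 3.45e-06). Its target *C1s1*, a protease of that complex, was at 1.79 to 4.42 FPKM in sham mice and 7.24 to 28.5 FPKM in AAN mice. *Serping1* minus *C1s1* differed by 0.36 between the groups (SE 0.53, exact permutation p = 0.562), less than the spread within either group. The list of complement C1 and the lectin proteases also holds *C3* and *C4b*. Of its 9 tested genes, 8 were called higher and 0 lower on the deposited scale, under the median of ratios and after quantile normalization. Complement component *C3* had the largest change called at 6.65 and *C1s1* the smallest at 2.50.

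All clade A genes but *Serpina7*, on the X chromosome, lie in a cluster on chromosome 12 (103614786 to 104414329), which holds 20 of the 44 genes. Of these, 8 were called higher, 1 lower, 3 were not called and 8 were not tested, beside 35.8% higher and 3.43% lower of all genes tested. Among those called higher, *Serpina10*, *Serpina6*, *Serpina3f*, *Serpina3h*, *Serpina3i* and *Serpina3n* had sham means below 0.1 FPKM and passed the filter through their AAN level. Genes called in opposite directions lay side by side in the cluster. At its proximal end lie *Serpina10* and *Serpina6*. *Serpina10* (103614786 to 103631444) encodes the protein Z-dependent inhibitor of clotting factor Xa. It stood at 0.0143, 0.0158, 0.0607 and 0.0909 FPKM in the sham mice and at 12.7 to 39.4 FPKM (median 28.6) in the AAN mice. No other Serpin gene had a larger log2 fold change, at 7.51 (SE 0.30, limma adjusted p = 7.03e-08), which ranged from 4.68 with a pseudocount of 1 to 9.13 with 0.01. *Serpina6* (103646630 to 103657212) encodes the plasma carrier of glucocorticoids. It was listed at 0 in all 4 sham mice and at 1.58 to 5.28 FPKM (median 2.99) in the AAN mice (limma adjusted p = 2.37e-07).

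**Figure D4:**
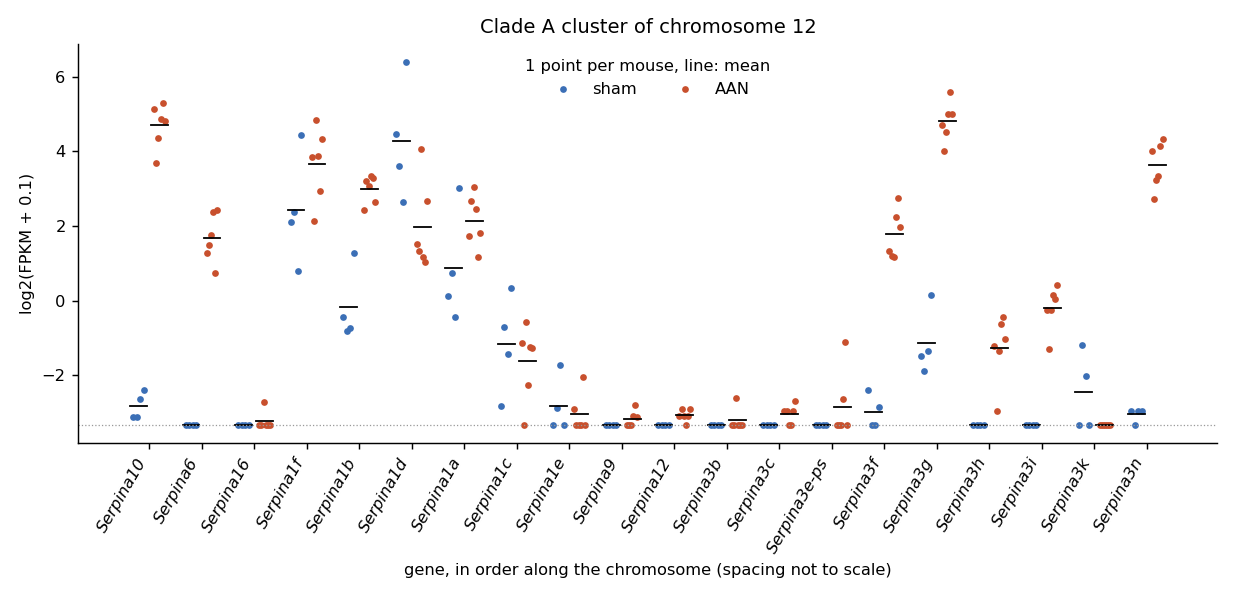
Level of the 20 clade A genes of chromosome 12, as log2(FPKM + 0.1), in their order along the chromosome, with 1 point per mouse (4 sham in blue, 6 AAN in red) and a black line at the mean of each group. The dotted line is the value of a gene listed at 0. Serpina1b is higher and its neighbour Serpina1d lower in AAN mice, and from Serpina1e to Serpina3e-ps both groups lie near 0 FPKM.

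*Serpina1a* to *Serpina1d* encode alpha 1-antitrypsin, the inhibitor of neutrophil elastase, in near-identical copies, while *Serpina1f* is not near-identical to them. The neighbours that went opposite ways, *Serpina1b* and *Serpina1d*, share most of the sequence before their start sites, which is shown here so that the few bases that set the copies apart can be read. Both stretches come from the RefSeq annotation of GRCm38.p6, at chr12:103738200-103738439 for *Serpina1b* and chr12:103773634-103773872 for *Serpina1d*, both on the minus strand, and capitals mark the bases at which the pair differ.
Serpina1b: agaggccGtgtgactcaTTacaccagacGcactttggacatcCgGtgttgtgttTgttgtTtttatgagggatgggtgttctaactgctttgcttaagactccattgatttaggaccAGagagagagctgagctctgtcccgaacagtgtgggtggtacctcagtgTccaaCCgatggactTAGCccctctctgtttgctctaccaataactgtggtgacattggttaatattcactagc
Serpina1d: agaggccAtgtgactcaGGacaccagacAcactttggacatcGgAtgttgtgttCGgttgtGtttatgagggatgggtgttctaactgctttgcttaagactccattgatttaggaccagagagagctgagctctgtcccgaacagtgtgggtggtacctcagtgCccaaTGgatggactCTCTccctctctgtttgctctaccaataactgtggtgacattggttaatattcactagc
Of 238 aligned bases 223 are identical (93.7%). Both hold GTTAAT, a stretch recognised by the liver and proximal tubule factor HNF1, close before the start site. It occurs on either strand in 6.43% of all 32851 RefSeq windows of 250 bases before a start site, and in 8 of the 36 Serpin genes with a window. These letters are a description of the sequence and not of factor binding.

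*Serpina1d* (103763594 to 103773592) stood at 22.0, 12.2, 6.19 and 83.9 FPKM in the sham mice. In the AAN mice it stood at 2.74, 2.42, 16.6, 2.14, 1.96 and 6.24 FPKM. The groups overlapped, through the sham mouse B636 at 6.19 and the AAN mice B630 at 16.6 and B666 at 6.24. *Serpina1d* fell by 2.32 on the log2 scale (SE 0.73, limma adjusted p = 0.0157). The call rests on the sham mouse H249 at 83.9 FPKM, without which the log2 fold change was -1.62 (limma adjusted p = 0.053).

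*Serpina1b* went from 0.631, 0.472, 0.498 and 2.31 FPKM in the sham mice to 5.33 to 9.98 FPKM (median 8.76) in the AAN mice, with no overlap. Its log2 fold change was 3.18 (SE 0.38, limma adjusted p = 2.17e-05), and 3.67 without H249. *Serpina1a* averaged 2.80 ± 3.50 FPKM over the sham mice (SD, n = 4), against 4.75 ± 2.27 FPKM over the AAN mice (SD, n = 6), and was not called (log2 fold change 1.28, limma adjusted p = 0.078). Without H249, where it stood at 8.02 FPKM, it was called higher (1.997, limma adjusted p = 0.002). *Serpina1f*, which lies next to *Serpina1b*, gave 8.10 ± 9.03 FPKM (SD, n = 4) and 14.9 ± 8.75 FPKM (SD, n = 6), not called over all mice (1.23, limma adjusted p = 0.118) called higher without H249 (1.90, limma adjusted p = 0.0137) and without B614 (1.54, limma adjusted p = 0.0498). *Serpina1c* stayed below 1.16 FPKM in every mouse and was not called, except after quantile normalization, where it was called lower (-1.65, limma adjusted p = 0.0373).

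The make-up of the *Serpina1a* to *Serpina1d* transcripts separated the groups more clearly than their amount. The sum over these 4 genes was 7.59 to 95.4 FPKM in sham mice and 11.6 to 33.7 FPKM in AAN mice, so it overlapped. *Serpina1d* made up 81.5% to 92.9% of that sum in sham mice and only 12.2% to 49.2% in AAN mice. *Serpina1b* made up 2.43% to 6.56% and 24.8% to 68.5%. Neither share overlapped between the groups, and H249, at 87.9% *Serpina1d*, lay inside the sham range. How fragments were split between these copies limits both shares: of all stretches of 75 bases in the longest transcript, 57.5% of *Serpina1a*, 37.1% of *Serpina1d* and 25.1% of *Serpina1b* occur in another gene too. The annotated span of *Serpina1b* (103728156 to 103830373) also contains that of *Serpina1d*. The values of these copies are therefore uncertain, while *Serpina1f* and *Serpina6* share no such stretch with any other gene.

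Hepatocytes make most alpha 1-antitrypsin in the body, so their markers were read alongside. Of the 6 tested hepatocyte markers, 3 were called lower and 0 higher. Their summed level, mostly *Ttr*, was 70.7 to 213 FPKM in sham mice, with H249 at 213, and 25.6 to 66.7 FPKM in AAN mice. Albumin (*Alb*) was at 1.502 to 3.88 FPKM in sham mice, and *Ahsg* and *Tat* were listed at 0 in all of them. *Serpinc1* is itself 1 of these markers. Their part in the Serpina1 levels was not tested.

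At the other end of the cluster lie the Serpina3 genes, which descend from the ancestor of human alpha 1-antichymotrypsin. *Serpina3n* encodes an inhibitor of cathepsin G and granzyme B, and *Serpina3g* one of cysteine cathepsins in leukocytes. Stretches before the start sites of the 4 copies with a RefSeq window and the highest levels in AAN mice are shown, since these copies moved together. They are on the plus strand of GRCm38.p6, from RefSeq, at chr12:104214388-104214475 (*Serpina3f*), chr12:104236079-104236146 (*Serpina3g*), chr12:104262985-104263072 (*Serpina3i*) and chr12:104406550-104406637 (*Serpina3n*). Capitals mark TTCNNNGAA, the spacing recognised by STAT factors of cytokine signalling, where it occurs.
Serpina3f: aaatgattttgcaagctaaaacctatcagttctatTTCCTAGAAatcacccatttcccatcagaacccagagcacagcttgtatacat
Serpina3g: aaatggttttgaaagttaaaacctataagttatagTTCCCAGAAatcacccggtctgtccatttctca
Serpina3i: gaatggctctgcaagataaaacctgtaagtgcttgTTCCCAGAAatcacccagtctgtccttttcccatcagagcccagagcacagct
Serpina3n: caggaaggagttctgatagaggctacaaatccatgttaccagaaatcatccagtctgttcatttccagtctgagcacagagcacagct
The motif occurs on either strand in 7.02% of all windows and in 7 of the 36 Serpin genes with one, again a count of windows beside a count of genes. It is in the first 3 of these stretches and not in that of *Serpina3n*.

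*Serpina3n* (104406729 to 104414329) stood at 0.0277, 0, 0.0294 and 0.0294 FPKM in the sham mice, which is 1 fragment in 3 of them and none in B634. A listed 0 allows up to 3 fragments, or 0.0879 FPKM at the mean sham depth, counting error alone. In the AAN mice it stood at 6.48 to 19.9 FPKM (median 12.9), or 210 to 669 fragments. Its log2 fold change was 6.67 (SE 0.30, limma adjusted p = 8.29e-08). *Serpina3g* (104236245 to 104241939) went from 0.257, 0.171, 0.292 and 1.002 FPKM to 15.9 to 48.5 FPKM (median 28.8), a log2 fold change of 5.95 (SE 0.39, limma adjusted p = 2.81e-07). *Serpina3f* (104214544 to 104221129) was listed at 0 in 2 sham mice and at 0.0891 and 0.0378 FPKM in the others, against 2.13 to 6.56 FPKM (median 3.13) in the AAN mice, a log2 fold change of 4.75 (SE 0.34, limma adjusted p = 5.25e-07). These 3 genes were called higher in all 19 alternatives. *Serpina3h* and *Serpina3i* were listed at 0 in every sham mouse and reached 0.636 and 1.23 FPKM in AAN mice, and both were called higher. *Serpina3k* was above 0 in sham mice alone, with 0.337 and 0.148 FPKM in 2 sham mice and a listed 0 in the other 2 and in all AAN mice, and it missed the filter.

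The acute phase genes, which many tissues and above all the liver raise in inflammation, were read beside the Serpina3 genes. Of 12 tested, 8 were called higher and 0 lower, with a median log2 fold change of 1.97, and 6 were called higher under the median of ratios and 4 after quantile normalization. *Lcn2*, which encodes lipocalin 2 and is also on the injured tubule list, had the largest change called at 6.87, and *Fga*, the alpha chain of fibrinogen, the smallest at 2.08, which was not called under the median of ratios (limma adjusted p = 0.19). Leukocyte markers moved in the same mice: 7 of 7 macrophage markers and 6 of 7 tested T and NK cell markers were called higher. The macrophage markers, which include *C1qa* of the complement list, summed to 30.3 to 56.4 FPKM in sham mice and 1475 to 4661 FPKM in AAN mice. The T and NK cell markers summed to 1.14 to 4.56 and 76.0 to 198 FPKM. All 8 markers of the injured tubule were also called higher, with sums of 189 to 299 and 1511 to 3831 FPKM. Their parts in the Serpina3 levels were not tested.

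Clade B serpins stay inside cells and shield them from proteases of their own granules and lysosomes. All 7 of the tested members were called higher, beside 35.8% of all genes. Of these 7, *Serpinb1b* and *Serpinb9b* were at 0 in all sham mice and were tested through their AAN level alone, and 5 remained under the median of ratios and 4 after quantile normalization. Of the 10 on chromosome 13 (32842092 to 34002794), 6 were called higher, 0 lower and 4 were not tested. *Serpinb9* (33003250 to 33017957) encodes the inhibitor of granzyme B, and it went from 4.36, 1.77, 2.06 and 3.41 FPKM in the sham mice to 9.66 to 21.4 FPKM (median 16.6) in the AAN mice. Its log2 fold change was 2.47 (SE 0.28, limma adjusted p = 1.71e-05), with no overlap. *Gzmb*, which encodes granzyme B, was at 0 to 0.428 FPKM in sham mice and 1.96 to 7.46 FPKM in AAN mice. *Serpinb9* minus *Gzmb* differed by -1.04 (SE 0.53, exact permutation p = 0.0857, adjusted p = 0.103), with overlapping groups.

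*Serpinb6b* (32965209 to 32979067) stood at 2.27, 1.76, 1.84 and 2.18 FPKM in the sham mice and at 9.29 to 19.6 FPKM (median 16.6) in the AAN mice. The sham mice were tight, the groups did not overlap, and the log2 fold change was 2.80 (SE 0.23, limma adjusted p = 1.34e-06). *Serpinb6a* (33917918 to 34002794), whose product inhibits cathepsin G, went from 1.37, 1.08, 1.022 and 1.72 FPKM to 4.15 to 8.88 FPKM (median 6.39), a log2 fold change of 2.18 (SE 0.24, limma adjusted p = 1.31e-05). Its span overlaps 3 other genes with a value, *Nqo2* and *Ripk1* among them, so its level is less certain. *Serpinb9b* was listed at 0 in all sham mice and at 0.277 to 1.83 FPKM in the AAN mice.

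*Serpinb1a* (32842092 to 32851185) encodes an inhibitor of neutrophil elastase, and it stood at 4.57, 3.41, 4.13 and 4.84 FPKM in the sham mice and at 3.98 to 13.4 FPKM (median 11.5) in the AAN mice. The groups overlapped through B639 at 3.98 FPKM. Its log2 fold change of 1.11 (SE 0.32, limma adjusted p = 0.0105) shrank to 0.36 under the median of ratios (limma adjusted p = 0.332) and was not called there. *Serpinb8* (chromosome 1, 107590006 to 107610484), an inhibitor of furin, went from 0.790, 0.661, 0.621 and 0.816 FPKM to 0.923 to 2.19 FPKM (median 1.80). It lay on the 2-fold limit at 1.005 (SE 0.26, limma adjusted p = 0.00505), fell under it without B634, B636, A483, B639, B642 or B666 (0.91 to 0.97), and was 0.31 under the median of ratios and -0.17 after quantile normalization. Relative to the median of all genes, the rises of *Serpinb1a* and *Serpinb8* come to 0.37 and 0.26.

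The proteases that clade B serpins meet were read beside them where they had a value. Only 6 of the 15 listed granule serine proteases had one. *Elane* (neutrophil elastase) and *Ctsg* (cathepsin G) were among those without. Of the 6 tested granule serine proteases, 5 were called higher and 0 lower, where 35.8% of all genes were called higher, but *Gzmc*, *Gzmk* and *Prtn3* are the 3 that passed the filter through their AAN level (median log2 fold change 2.32, and 3 higher after quantile normalization), from *Gzma*, granzyme A, at 2.57 to *Gzmk*, granzyme K, at 4.29 among those of at least 1 FPKM. Of the 11 lysosomal cysteine proteases, 7 were called higher and 0 lower (median 1.41, and 4 higher under the median of ratios). *Ctsw*, the cathepsin of cytotoxic lymphocytes, and *Ctss*, cathepsin S, shared the largest change called in that list at 5.58. The smallest was that of *Ctsb*, cathepsin B, at 1.18, which came to 0.42 under the median of ratios and was not called there. Neutrophil markers were called higher in 4 of 5 tested (2 under the median of ratios and 1 after quantile normalization), and their sums were 0.228 to 2.41 and 2.69 to 16.1 FPKM. *Ly6g*, another marker on that list, was above 0 only in the AAN mice A483 (0.143 FPKM) and B642 (0.0993 FPKM). It was not tested, and *Mpo* had no value. Only 4 of the 8 mast cell markers had a value. The 3 tested were called higher, but 1 under the median of ratios and 0 after quantile normalization. The sums were 1.09 to 1.52 and 2.79 to 4.20 FPKM, mostly *Kit* (0.984 to 1.48 and 2.26 to 3.94 FPKM). *Cpa3* was above 0 only in the AAN mouse A483, at 0.0800 FPKM, and was not tested, so a rise of mast cells is not shown. B cell markers were called higher in 4 of 4 (1.03 to 2.67 and 19.7 to 78.3 FPKM), and in 2 after quantile normalization. Their part in the clade B levels was not tested.

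The thrombin inhibitors *Serpinc1* and *Serpind1* were low in this tissue. *Serpinc1* (chromosome 1, 160978585 to 161005863) encodes antithrombin, the main inhibitor of thrombin and factor Xa. It stood at 0.239, 0.164, 0.249 and 0.186 FPKM in the sham mice and at 0.0625 to 0.148 FPKM in the AAN mice. Every AAN mouse was below every sham mouse, yet the log2 fold change of -0.62 (SE 0.23, limma adjusted p = 0.0328) was under the 2-fold limit. Under the median of ratios it passed, at -1.08 (limma adjusted p = 0.0012). Its span overlaps *Zbtb37*, so reads may be shared. Prothrombin (*F2*), its target, reached at most 0.0351 FPKM in any mouse and was not tested. *Serpind1*, which encodes heparin cofactor II, was at 0.0318 to 0.190 FPKM in sham mice and 0.166 to 0.417 FPKM in AAN mice. It was called higher (log2 fold change 1.07, SE 0.31, limma adjusted p = 0.0105), lost the call under the median of ratios (0.67) and without B634, B636, B614 or B666 (0.95 to 0.985), and was -0.25 after quantile normalization. Of 10 tested coagulation and contact proteases and their receptors, 5 were called higher and 3 lower (median 0.60), and 3 and 4 under the median of ratios. *F7*, which encodes factor VII, had the highest change called at 4.09, but it passed the filter through its AAN level. *F13b*, a chain of factor XIII, had the lowest at -1.79 (SE 0.72, limma adjusted p = 0.0473), with overlapping groups. It was not called at the same FPKM total (-1.43, limma adjusted p = 0.134). *Proc*, which encodes protein C, lay close to it at -1.765 (SE 0.145, limma adjusted p = 1.25e-06), with no overlap.

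The remaining members were minor. *Serpina7*, the carrier of thyroid hormone, stayed at or below 0.0428 FPKM in sham mice and reached 0.558 FPKM in AAN mice, and was called higher. *Serpinb1b* was listed at 0 in all sham mice, reached 0.506 FPKM and was called higher. *Serpini1*, which encodes neuroserpin, an inhibitor of tissue plasminogen activator, was at 0.255 to 0.453 FPKM in sham mice and 0.371 to 1.17 FPKM in AAN mice, and was under the 2-fold limit (log2 fold change 0.83, limma adjusted p = 0.0218, and 1.13 at the same FPKM total). The 16 genes that missed the filter were *Serpina12*, *Serpina16*, *Serpina1e*, *Serpina3b*, *Serpina3c*, *Serpina3e-ps*, *Serpina3k*, *Serpina9*, *Serpinb10*, *Serpinb12*, *Serpinb1c*, *Serpinb2*, *Serpinb5*, *Serpinb6c*, *Serpinb9c* and *Serpinb9g*. None had a group mean above 0.121 FPKM, and 12 of them were at 0 in all sham mice. Of the squamous epithelium markers, read because *Serpinb5* and *Serpinb12* are known from such epithelia, 1 of 3 tested was called higher.

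Taken as shares of its own sum, the family changed its make-up. The summed level of the 44 genes was 132 to 265 FPKM in sham mice and 259 to 557 FPKM in AAN mice, with the lowest AAN mouse, B614, at 259 just under H249. Clade F (*Serpinf2* and *Serpinf1*) made up 32.8% to 53.0% of the sum in sham mice against 2.60% to 11% in AAN mice, and *Serpinf2* alone 32.5% to 52.8% against 2.10% to 10.4%. Clade G (*Serping1*) made up 3.24% to 12.3% and 15.1% to 23.1%, *Serpine2* 0.427% to 1.22% and 2.96% to 4.30%, and clade B 4.92% to 7.33% and 8.90% to 17.6%. These 4 shares did not overlap between the groups. Clade H (*Serpinh1*) made up 12.4% to 26.9% and 22.7% to 41.4%, and clade A 7.57% to 44.5%, the upper value from H249, and 22.8% to 33.8%, so both overlapped. By mean level the leading genes were *Serpinf2*, *Serpinh1*, *Serpina1d* and *Serping1* in sham mice (79.0, 38.4, 31.1 and 11.3 FPKM), and *Serpinh1*, *Serping1*, *Serpina3g* and *Serpina10* in AAN mice (136, 81.6, 29.5 and 27.5 FPKM). In sham mice *Serpina1d* differed from both its neighbours in that order by less than its SD of 35.8 FPKM, and its mean rests on H249, since the other 3 mice lay between 6.19 and 22.0 FPKM. In AAN mice *Serpinh1* and *Serping1* differed by less than the SD of *Serpinh1* (65.6 FPKM), and *Serpina3g* and *Serpina10* by less than the SD of either.

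**Figure D5:**
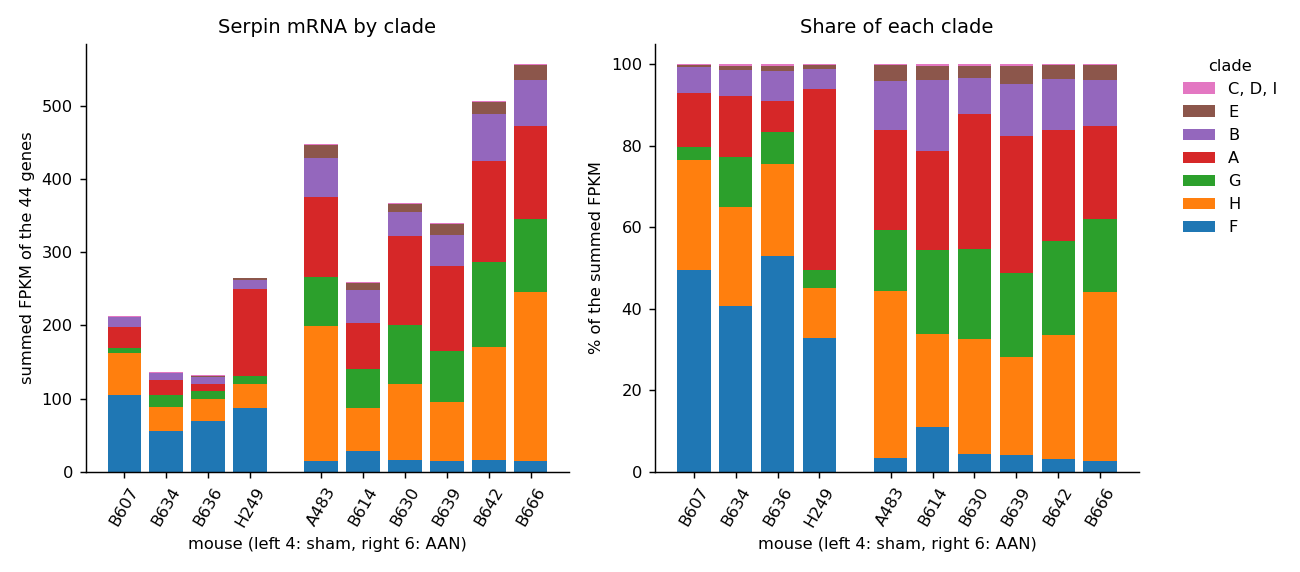
Summed FPKM of the 44 Serpin genes in each mouse (left) and the share of each clade in that sum in percent (right), with the 4 sham mice to the left and the 6 AAN mice to the right of the gap. Clade F, in blue at the base, makes up 32.8% to 53.0% in the sham mice and 2.60% to 11% in the AAN mice, and B614 keeps the largest share of it among the AAN mice.

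The AAN mice were not alike. Among the 15 genes called higher that averaged at least 1 FPKM in either group, B614 was the lowest AAN mouse in 10, while B642 was the highest in 7 and B666 in 5. Without B614, 21 genes were called higher, with *Serpina1f* in place of *Serpind1*. Among the other tissue markers, 0 of 7 for endothelium, 1 of 6 for podocytes (0 under both the median of ratios and quantile normalization) and 0 of 6 for distal tubule and collecting duct were called higher, and 1 of 5 for the thick limb was called lower. On the adipocyte list *Pparg* was the 1 gene tested, and it was called higher. *Adipoq*, *Plin1*, *Cidec* and *Retn* stayed at or below 0.199 FPKM in every mouse and missed the filter, and *Lep* had no value, so adipocytes are not shown. Under the median of ratios, 3 thick limb, 2 distal tubule and 1 of the endothelial markers were called lower. At the same FPKM total, 3 endothelial markers were called higher and 0 of the thick limb markers lower. *Pparg* was not called after quantile normalization. B614 had the highest AAN sum for thick limb (1958 FPKM against 211 to 539) and distal tubule (857 against 164 to 307). The part of these differences in its serpin levels was not tested.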

How the data were processed

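Kidney cortex RNA of 10 mice was sequenced as paired-end libraries. The authors removed rRNA, adapter, short and low-quality reads, mapped the rest with Hisat2 to GRCm38 and computed FPKM per known gene with Stringtie, and these deposited FPKM values were used as given, with no counts. The annotation release, and whether counting used strand, are not given in the sources used here. Symbols and positions came from GENCODE M21 (21650 of 21792 genes). The authors tested with edgeR, which needs counts. Here limma 3.58.1 in R 4.3.3 (trend, robust, two-sided, Benjamini-Hochberg over all 17129 genes tested) was used, with a pseudocount of 0.1 and a mean of at least 0.1 FPKM. The fit was tested on simulated data. P-values measure the spread between mice. Pairs were tested with scipy 1.17.1 (Python 3.11.15). Depth was recovered from values that were whole fragments within 0.05 in 94.7% to 96.5% of cases. Sequences are RefSeq windows of GRCm38.p6, with 36 of the 44 genes matched. Another gene of the family, with the 2 pairs tested for it, is not reported here.

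The members, gene lists and pairs were chosen with earlier results of these data known. Named in full are genes of at least 1 FPKM in either group (values in every mouse plotted), with partners and the extremes of each list. Alternatives were a pseudocount of 1 or 0.01, the filter left out or raised to 1 FPKM, 3 scalings, eBayes without trend or robust, no fold limit, each mouse left out, and mice with B tags alone. The paired test and count tests were not run, since the labels number no replicates and the values are not counts.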

Additional observations from a re-analysis of the deposited data

Results flagged for a closer look

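Values far from the rest of their group (gap to the nearest mouse over the range, above Dixon's limit) were found in 8 of the 46 groups of values examined, where chance gives about 1 in 20, or 2.3. The sham mouse H249 was high for *Serpina1a* (8.02 FPKM against 0.641 to 1.56), *Serpina1b* (2.31 against 0.472 to 0.631) and *Serpina3g* (1.002 against 0.171 to 0.292). Among AAN mice, B630 was high for *Serpina1d* (16.6 FPKM against 1.96 to 6.24) and B614 for *Serpinf2* (26.8 against 11.4 to 13.4). The sham mouse B607 was high for *Serpinh1* (57.2 FPKM against 29.9 to 33.3) and for *Serpinh1* minus *Col1a1* (4.30 against 3.45 to 3.54 on the log2 scale). *Serpina3n* was listed at 0 in the sham mouse B634, with 0.0277 to 0.0294 FPKM, or 1 fragment, in the others. What sets these mice apart was not tested.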

How the results depend on the processing

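A pseudocount of 1 left 13 genes called higher in place of 21 (lost were *Serpina3h*, *Serpina3i*, *Serpina7*, *Serpinb1a*, *Serpinb1b*, *Serpinb8*, *Serpinb9b* and *Serpind1*), and there were 19 to 23 with each mouse left out in turn. Quantile normalization also ended the calls of *Serpina3h*, *Serpina7*, *Serpinb1a* and *Serpinb1b*. The 2 called lower became 4 after quantile normalization, 1 without H249 or with the mice of B tags alone, and 1 to 2 over the mice left out. *Serpina1c*, at -0.47, ranged from -1.023 to 0.027 over the mice left out and reversed without H249. Quantile normalization reversed *Serpinb8* to -0.17, *Serpind1* to -0.25 and *Serpini1* to -0.42. With a pseudocount of 1, *Serpinb9* minus *Gzmb* reversed to 0.26, and *Serpine2* minus *Plau* (0.45) no longer passed. With the B tags alone, 3 sham and 5 AAN mice, no pair passed after adjustment (smallest adjusted p = 0.0536 from the exact permutation test). Fewer mice can be divided in fewer ways, which raises the smallest possible p, so this test cannot show that a difference was lost. The differences were 1.05 for *Serpine2* minus *Plau* and -2.90 for *Serpinh1* minus *Col1a1*. The causes of the shifts between settings were not tested. No paired analysis was possible because each mouse carries a tag of its own and the labels number no replicates. The median of ratios moved the median of all genes from 0.75 to 0.065, quantile normalization to -0.14 and the same FPKM total to 1.07. At 13.4 to 17.5 M fragments, a sham level of a few hundredths of an FPKM is about 1 fragment, so folds over such levels depend on the pseudocount.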
